A study of Mus musculus with 8 samples.

Results

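The interferon-stimulated and RNA-sensing genes were examined in hearts that had lost Mettl3 in their cardiomyocytes. The set was a list of 40 mouse gene symbols, matched exactly to the symbols of the processed gene table. All 40 were found among the 23045 genes listed, and all 40 were among the 20313 genes whose mean value reached at least 1 and that were tested. By role the list held 5 RNA sensors with their adaptor, 7 enzymes that act on RNA or nucleotides, 5 transcription factors, 5 members of the Ifit family, 2 genes of ISG15 conjugation, 10 other effectors and 6 interferon-inducible GTPases.

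METTL3 is the enzyme that places N6-methyladenosine (m6A) on nascent RNA. The authors used RNA-seq of these whole hearts to analyse the use of polyadenylation sites. Described here are the levels per gene once Mettl3 is deleted. Hearts of 4 mice labelled Mettl3lox/lox (WT) were compared with hearts of 4 mice labelled Mettl3lox/lox:alphaMHC-MerCreMerpos (Mettl3 KO). Mice of both genotypes thus carried loxP-flanked Mettl3, and according to the methods both received tamoxifen for 7 days at 100 µg per g of body weight, at an age of 10 to 16 weeks. Only the Mettl3 KO mice carried MerCreMer, a tamoxifen-activated Cre driven by the αMHC promoter, which is active in cardiomyocytes, so that endothelial cells, fibroblasts and immune cells of these hearts kept the gene and the controls had no Cre. The time from tamoxifen to tissue collection is not given in the sources used here, and no label says more about the replicates than their number, so that p-values measure the spread between these 8 samples.

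Cells recognise foreign or misplaced RNA through sensors in the cytosol and in endosomes, which signal through adaptor proteins to the IRF transcription factors and lead to the secretion of type I interferon. Interferon in turn acts on its receptor and, through transcription factors that include STAT2 and IRF9, switches on a large set of antiviral genes, many of which encode sensors and IRFs themselves. Interferon-γ acts in part through IRF1 and is a strong inducer of the GTPases of the GBP and IRG families. m6A on a cell's own RNA is known to reduce its recognition by such sensors, which makes these genes of interest in a Mettl3 KO tissue.

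Values are normalized read counts, read numbers per gene divided by a scaling factor of the library, and are given below in the order of replicates 1 to 4. Their sums were 2839589 to 2916986 per library, and the underlying reads, inferred from gaps between low values, numbered 2631904 to 3061253. A gene with no read could have had up to 3 reads, or 2.78 to 3.33 normalized read counts depending on the library, and such floors cover counting error only. Mettl3 itself had 105, 133, 118 and 107 normalized read counts in WT hearts and 74, 68, 69 and 78 in Mettl3 KO hearts, with no overlap and a log2 fold change of -0.67 (limma, adjusted p = 0.000184). No pair of libraries agreed within sampling noise. Log2 fold changes are Mettl3 KO minus WT on the scale log2(value + 1), which understates the change of low genes, and a gene was called when its adjusted p in limma, a linear model fitted to all tested genes, was under 0.05.

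Of the 40 genes, Irgm1 was called higher in Mettl3 KO hearts and 39 were not called. This is 2.5% of the list, where 7.91% of all tested genes were called, 4.72% higher and 3.19% lower. The log2 fold change was above 0 for 25 genes and below 0 for 15, with a median of 0.02 against -0.01 for all tested genes. Scaling the libraries to equal upper quartiles gave 20 genes above and 20 below 0, and the split was 16 to 24 both without WT replicate 3 and without Mettl3 KO replicate 1. Before adjustment, p was under 0.05 for 7 genes (17.5%), against 20.6% of all tested genes. The 95% interval of the log2 fold change lay within ±0.5 for 27 genes and within ±1 for 38, so that for the latter a log2 fold change of 1 in either direction was outside the interval. The exceptions were Oas3 and Isg15, which were both close to the detection limit. In no gene were all Mettl3 KO libraries above or all below the WT libraries, whereas 11.5% of all tested genes showed such a separation.

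**Figure D1:**
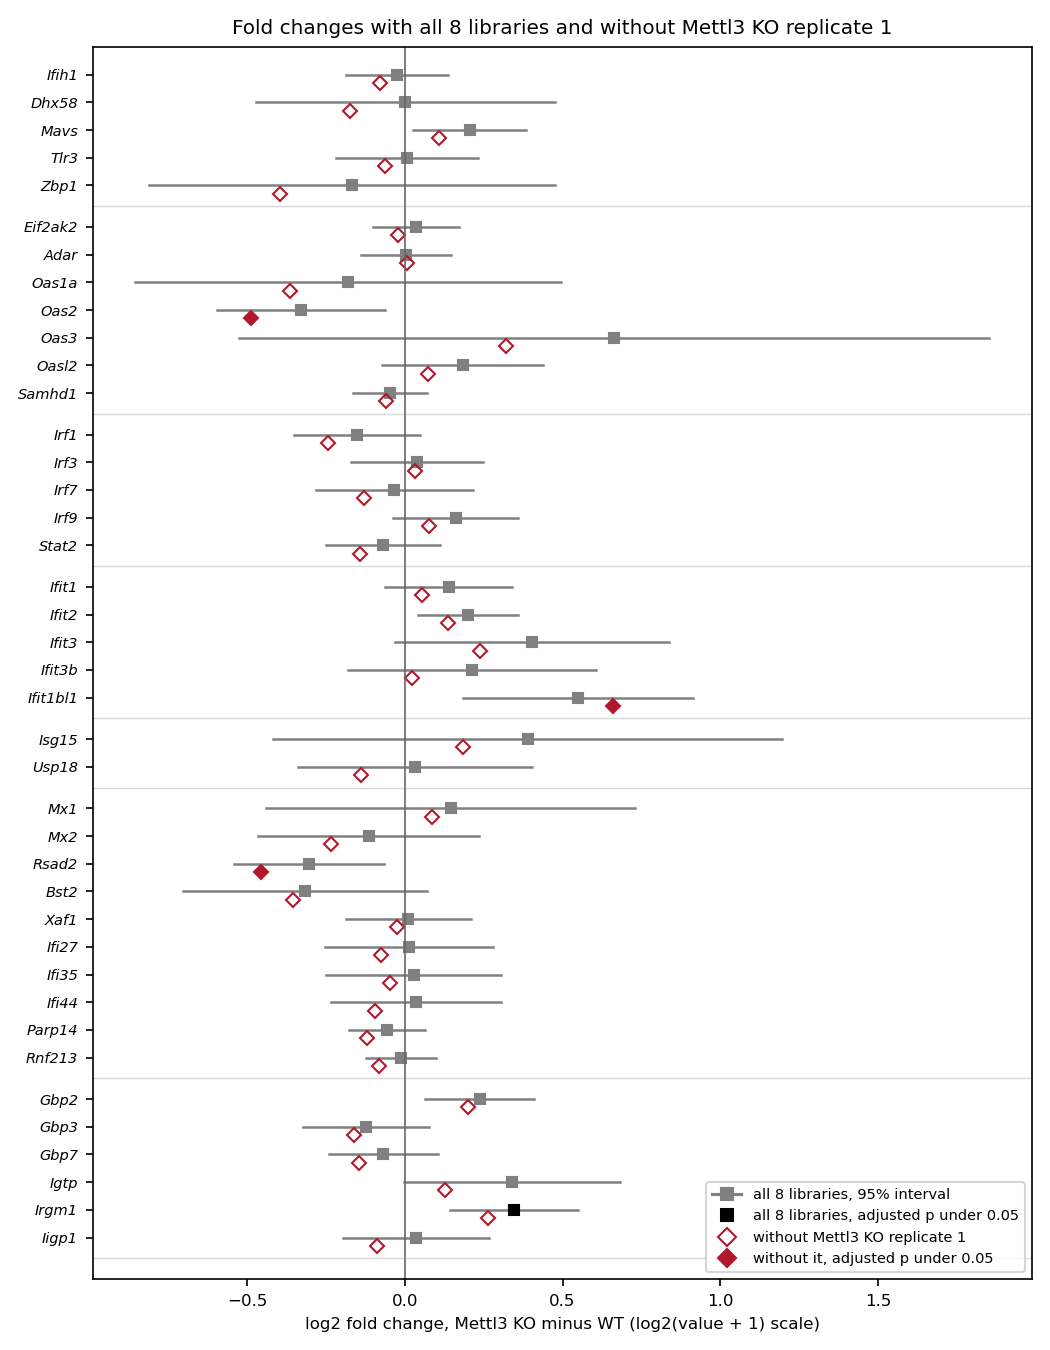
Log2 fold change of each of the 40 genes (Mettl3 KO minus WT, on the log2(value + 1) scale; squares, with bars for the 95% interval, n = 4 per genotype) and the same without Mettl3 KO replicate 1 (diamonds, filled where the adjusted p in limma was under 0.05). Irgm1 is called with all 8 libraries, while Ifit1bl1, Oas2 and Rsad2 are called without Mettl3 KO replicate 1, and 38 of the 40 diamonds lie to the left of their square.

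The genes varied together by library. The highest value of all 8 libraries was that of Mettl3 KO replicate 1, without a tie, in 28 of the 40 genes (70%), which was the case in 13.5% of all tested genes and in 16.1% of the 13795 genes with a mean of at least 10. It held the lowest value in 0 of them. In 35 genes it lay above each of the other Mettl3 KO libraries (25.6% of all tested genes), and the median ratio of its value to the mean of the other 7 libraries was 1.2, against 1.0 over the genes with a mean of at least 10. Its value was at least 1.2 times the mean of the other Mettl3 KO libraries in 27 genes (12.4% of genes with a mean of at least 10) and at least 1.5 times in 11 genes (2.72%). The pattern was noticed in these values and is given as a description, with no test.

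Summed over the 40 genes, the WT libraries held 6756, 6762, 6260 and 7006 normalized read counts and the Mettl3 KO libraries held 8038, 6298, 6763 and 6296. Mettl3 KO replicate 1 thus stood above all others, while the other Mettl3 KO libraries lay within the range of the WT libraries. The mean deviation of the 40 genes from their 8-library mean was 0.33 on the log2 scale in Mettl3 KO replicate 1, between -0.09 and -0.04 in the other Mettl3 KO libraries, -0.18 in WT replicate 3 and between 0.00 and 0.03 in the other WT libraries. The lowest value fell to WT replicate 3 in 12 genes (30%, against 10.01% of all tested genes) and to Mettl3 KO replicate 2 in another 12 (8.64% of all tested genes).

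**Figure D2:**
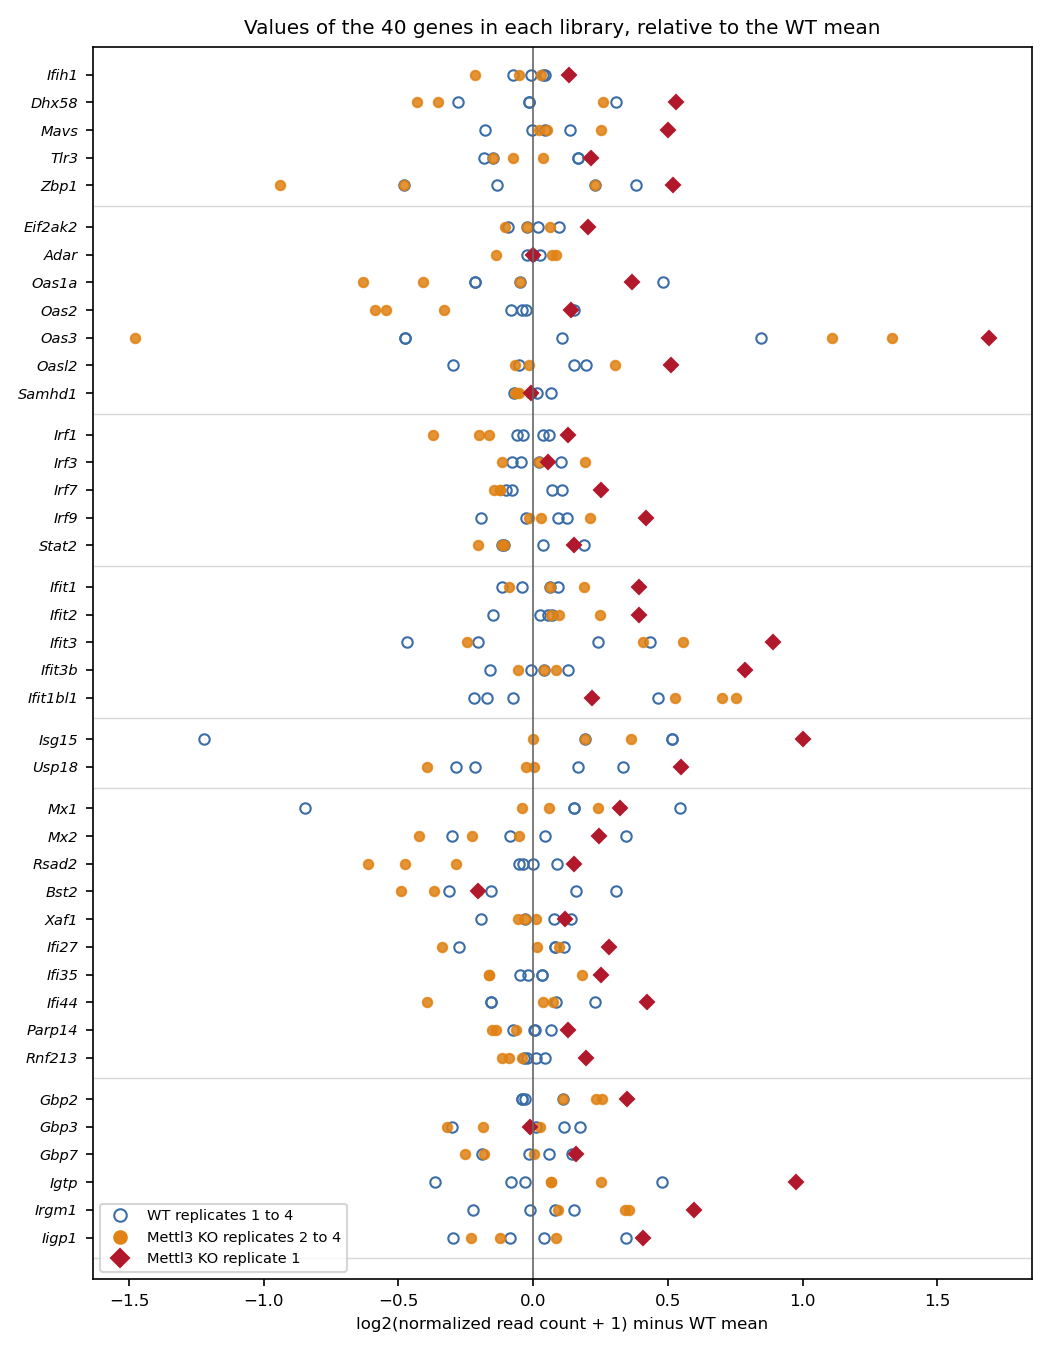
Value of each of the 40 genes in each library as log2(normalized read count + 1) minus the WT mean, for WT (open circles), Mettl3 KO replicates 2 to 4 (filled circles) and Mettl3 KO replicate 1 (diamonds). The diamond is the rightmost point in 28 of the 40 genes, and the other Mettl3 KO libraries are spread on both sides of the WT mean.

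Mettl3 KO replicate 1 was picked out because its values in these same genes were high. Leaving it out thus lowers most of their Mettl3 KO means. The p-values without it, here and elsewhere, are descriptions and no independent test. Without Mettl3 KO replicate 1 the result for these genes was another. Irgm1 was no longer called, Ifit1bl1 was called higher, and Rsad2 and Oas2 were called lower, which is 3 of 40 genes, or 7.5%, where 7.82% of all tested genes were called. The median log2 fold change moved from 0.02 to -0.06, and 38 of the 40 fold changes moved down. The genotypes then did not overlap in 6 genes (15%), namely Oas2, Irf1, Irf7, Ifit1bl1, Rsad2 and Rnf213, where 16.2% of all tested genes showed no overlap. Leaving out any other library gave 0 to 3 genes without overlap (0 to 7.5%), where 14.3% to 15.2% of all tested genes showed none. In 34 of the 40 genes leaving out 1 library changed the sign of the log2 fold change or moved it by over 1.5 times, and the other 6 were Bst2, Gbp2, Ifit1bl1, Ifit2, Irgm1 and Oas2.

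Mettl3 KO replicate 1 also differed from the other Mettl3 KO libraries outside this list. Bmp10, an atrial growth factor, had 0 normalized read counts in every WT library and 0, 195, 158 and 358 in the Mettl3 KO libraries. Myl7, the atrial light chain of myosin, had 26, 21, 0 and 23 in WT against 23, 65, 90 and 119 in Mettl3 KO. The recovered reads of Mettl3 KO replicate 1, 2631904, were the fewest of the 8 libraries. The part of these differences in the interferon pattern was not tested.

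The levels of the genes can be compared per length of exon, taken over all annotated exons of a gene. Genes with annotated exons that these hearts do not use are thus placed too low. The same holds for genes with many reads that fit several places, which the authors removed. Per kb of exon, Iigp1 was highest in WT hearts with 95.5 ± 18.2 normalized read counts (SD, n = 4), followed by Mavs with 88.9 ± 8.00, Rnf213 with 68.4 ± 1.71, Eif2ak2 with 67.4 ± 3.68, Parp14 with 65.3 ± 2.60 and Gbp3 with 60.1 ± 8.38. Neighbours in this order differed by less than the larger of their SDs, with the exception of Mavs and Rnf213. At the other end stood Isg15 with 8.93 ± 4.37, Dhx58 with 7.18 ± 1.26, Oas1a with 4.51 ± 1.26, Zbp1 with 4.18 ± 1.14, Mx1 with 3.76 ± 1.42 and Oas3 with 0.283 ± 0.200 normalized read counts per kb. Mavs, the adaptor through which the cytosolic sensors signal, thus exceeded the sensor Ifih1, at 23.8 ± 0.900 normalized read counts per kb. Isg15, among the classic genes switched on by type I interferon, was near the bottom of the order in hearts of both genotypes.

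**Figure D3:**
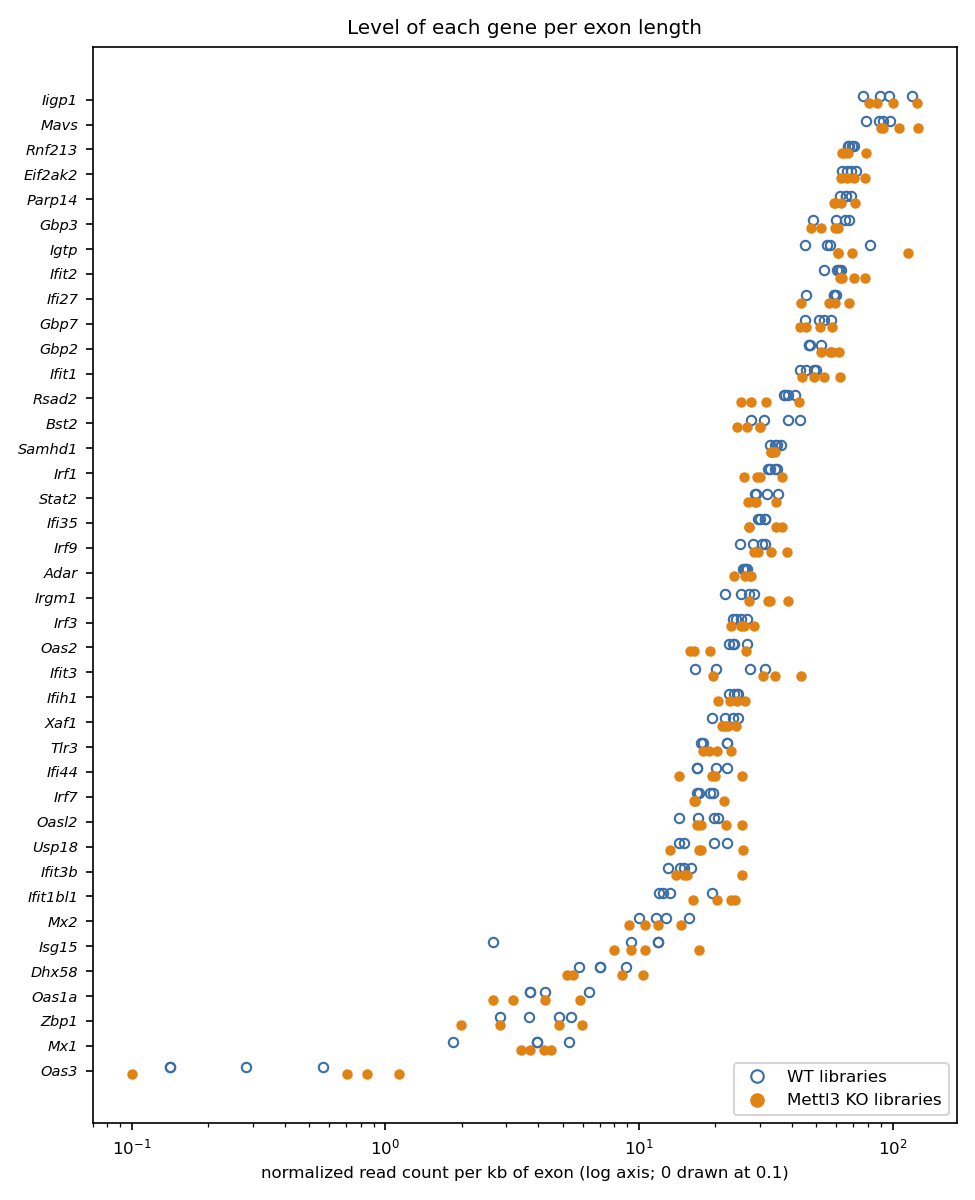
Level of each gene in each WT library (open circles) and Mettl3 KO library (filled circles) as normalized read counts per kb of exon on a log axis, ordered by the WT mean. The genes run from 95.5 for Iigp1 down to 0.283 for Oas3, and the points of the genotypes overlap in every gene.

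To see what the genes share in sequence, the 250 bases before and 50 bases after the start of each gene (RefSeq, GRCm38.p6) were searched for letters of the elements through which interferon acts. The letters GAAANNGAAA, taken on both strands, stand for the core of the interferon-stimulated response element (ISRE), which ISGF3 and the IRFs bind, and TTCNNNGAA for the gamma-activated site (GAS) through which interferon-γ acts. The same bases may count for both. Of the 31 genes with an entry, 17 held the ISRE letters (54.8%, against 3.99% of 27025 genes), 10 held the GAS letters (32.3%, against 9.55%) and 5 held both (16.1%, against 0.614%). Dhx58, Zbp1, Oas2, Usp18, Mx1, Mx2, Ifi27, Parp14 and Iigp1 had no entry.

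The windows shown here belong to genes whose values are described below, 1 window for each, with the ISRE letters in capitals and up to 20 bases before and after them on the strand of the gene. They lie at chr3:142620584-142620633 for Gbp2, chr11:58199502-58199551 for Igtp and chr12:26456543-26456592 for Rsad2. For the Ifit family they lie at chr19:34602043-34602092 for Ifit1bl1, chr19:34583353-34583402 for Ifit3 and chr19:34607749-34607798 for Ifit3b, and for Isg15 at chr4:156200861-156200910 (GRCm38.p6, plus strand for Gbp2, Igtp, Ifit3 and Ifit3b and minus strand for Rsad2, Ifit1bl1 and Isg15). The capitals begin 59 bases before the start in Gbp2, 34 in Igtp, 120 in Rsad2, 104 in Ifit1bl1, 156 in Ifit3, 188 in Ifit3b and 72 in Isg15.
Gbp2: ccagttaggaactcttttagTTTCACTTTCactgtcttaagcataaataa
Igtp: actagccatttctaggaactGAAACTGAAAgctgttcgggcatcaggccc
Rsad2: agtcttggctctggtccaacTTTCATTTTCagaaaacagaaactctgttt
Ifit1bl1: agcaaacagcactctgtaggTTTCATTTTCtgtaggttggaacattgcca
Ifit3: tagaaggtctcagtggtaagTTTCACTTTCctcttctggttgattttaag
Ifit3b: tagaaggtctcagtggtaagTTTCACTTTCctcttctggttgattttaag
Isg15: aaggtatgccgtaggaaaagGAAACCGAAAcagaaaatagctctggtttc
The windows of Ifit3 and Ifit3b are identical.

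The values are given here by the ISRE letters, as a description with no test. The highest value fell to Mettl3 KO replicate 1 in 12 of the 17 genes with the letters, in 10 of the 14 without them and in 6 of the 9 with no entry. The median ratio of this library to the mean of the other 7 was 1.26, 1.19 and 1.26 in these groups, and their median log2 fold changes between the genotypes were 0.14, 0.02 and 0.00. Without that library the medians were 0.02, -0.04 and -0.14. A match of letters is a description of the sequence and no measurement of binding.

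Among the sensors none was called, and Mettl3 KO replicate 1 was the highest library in 5 of 5. Mavs, the adaptor on mitochondria that relays the signal of the cytosolic sensors, had 306, 296, 326 and 262 normalized read counts in WT and 420, 307, 353 and 301 in Mettl3 KO. Mettl3 KO replicate 1 stood above all others, replicate 3 also exceeded the WT libraries, and replicates 2 and 4 lay within their range. Its log2 fold change was 0.21 (95% interval 0.03 to 0.39, limma, adjusted p = 0.171) and 0.11 without that library (adjusted p = 0.472).

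Ifih1, also called MDA5, recognises long RNA duplexes in the cytosol and had 199, 193, 184 and 200 normalized read counts in WT and 213, 187, 198 and 167 in Mettl3 KO hearts. Tlr3, the endosomal receptor of such duplexes, had 116, 91, 116 and 93 in WT against 120, 106, 93 and 98 in Mettl3 KO. In both genes the genotypes overlapped along most of their range, with log2 fold changes of -0.03 (95% interval -0.19 to 0.14) and 0.01 (-0.22 to 0.23). Dhx58, also known as LGP2, which modulates the activity of MDA5, had 23, 29, 19 and 23 in WT against 34, 17, 28 and 18 in Mettl3 KO (log2 fold change 0.00, adjusted p = 1.00). Zbp1, a sensor of nucleic acids in the Z form, had 17, 19, 13 and 10 in WT against 21, 7, 17 and 10 in Mettl3 KO (log2 fold change -0.17, adjusted p = 0.837). At these low values the intervals were wide, -0.47 to 0.48 for Dhx58 and -0.81 to 0.48 for Zbp1. Zbp1 was at -0.40 without Mettl3 KO replicate 1 and at 0.09 without Mettl3 KO replicate 2.

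The enzymes that act on RNA or nucleotides included the most even genes of the set. Adar, which edits adenosine to inosine in RNA duplexes and thereby keeps self RNA from being sensed, had 216, 212, 209 and 212 normalized read counts in WT and 212, 223, 193 and 225 in Mettl3 KO. Samhd1, which degrades deoxynucleotides, had 331, 319, 301 and 314 in WT against 314, 305, 303 and 302 in Mettl3 KO. For both genes all libraries lay close together, Mettl3 KO replicate 1 was not set apart, and the log2 fold changes were 0.00 (95% interval -0.14 to 0.15) and -0.05 (-0.16 to 0.07). Eif2ak2, the kinase PKR that stops translation when it binds RNA duplexes, had 323, 349, 339 and 368 in WT against 397, 320, 360 and 339 in Mettl3 KO. Apart from the high value of replicate 1 its Mettl3 KO libraries lay inside the WT range or just below it, with a log2 fold change of 0.04 (95% interval -0.10 to 0.17).

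The oligoadenylate synthetases make the messenger that activates the nuclease RNase L. Oas2 had 119, 104, 101 and 105 normalized read counts in WT and 118, 71, 85 and 73 in Mettl3 KO. Mettl3 KO replicate 1 lay at the level of the highest WT library, while the other Mettl3 KO libraries were all below the lowest WT library. With all libraries the log2 fold change was -0.33 (SE 0.13, 95% interval -0.60 to -0.06, limma, adjusted p = 0.128). Without Mettl3 KO replicate 1 the level fell from 107 ± 8.02 (SD, n = 4) to 76.3 ± 7.57 (SD, n = 3), or -0.49 on the log2 scale (limma, adjusted p = 0.00520), and over all 20 alternatives the adjusted p ranged from 0.00520 to 0.358. Oas2 was called in that alternative alone.

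Oasl2, a relative of these synthetases, had 92, 130, 109 and 126 normalized read counts in WT and 162, 108, 112 and 140 in Mettl3 KO, where replicates 1 and 4 exceeded the WT libraries and replicates 2 and 3 lay within their range (log2 fold change 0.18, adjusted p = 0.450, and 0.07 without Mettl3 KO replicate 1 or 0.08 without WT replicate 1). Oas1a was low, with 12, 7, 8 and 7 in WT against 11, 6, 5 and 8 in Mettl3 KO, and 48.5% of its 72-base windows, the length of a read, also occur in transcripts of other genes, mostly Oas1g, so that its value depends on how such reads were treated. Oas3 had 1, 1, 4 and 2 in WT against 8, 5, 0 and 6 in Mettl3 KO. Most of these values of Oas3 are near the detection limit, and its log2 fold change of 0.66 had an interval of -0.53 to 1.85.

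The transcription factors were not called either, with 2 log2 fold changes above 0, 3 below 0 and a median of -0.03. The median was -0.13 without Mettl3 KO replicate 1. Stat2 and Irf9 are subunits of ISGF3, the complex that carries the type I interferon signal to the ISRE. Stat2 had 210, 189, 170 and 171 normalized read counts in WT and 205, 160, 171 and 170 in Mettl3 KO (log2 fold change -0.07, 95% interval -0.25 to 0.11). Irf9 had 169, 152, 135 and 165 in WT against 207, 153, 179 and 158 in Mettl3 KO (log2 fold change 0.16, 95% interval -0.04 to 0.36, and 0.07 without Mettl3 KO replicate 1 or 0.10 without WT replicate 3). Their Mettl3 KO libraries other than replicate 1 stayed inside the WT range or within 10 normalized read counts of it.

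Irf1, which activates interferon and interferon-γ targets, had 139, 128, 130 and 137 normalized read counts in WT and 146, 103, 116 and 119 in Mettl3 KO. Replicate 1 was again the highest, and the other Mettl3 KO libraries lay below every WT library. The log2 fold change was -0.15 (95% interval -0.35 to 0.05, limma, adjusted p = 0.420). It ranged from -0.24 (adjusted p = 0.106), when replicate 1 was the library left out, to -0.08 (adjusted p = 0.741), when it was replicate 2 of the Mettl3 KO hearts. Irf7, the IRF that amplifies the interferon response, had 72, 74, 65 and 64 in WT against 82, 63, 62 and 63 in Mettl3 KO. Its replicate 1 was likewise the highest library, and the other Mettl3 KO libraries lay just below every WT library. Irf3, which cells hold at all times and activate by phosphorylation, had 81, 83, 92 and 87 in WT against 89, 98, 87 and 79 in Mettl3 KO, with replicate 1 in the middle.

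The Ifit genes encode proteins that bind foreign RNA ends and block its translation. The 5 members lie side by side on chromosome 19 (mm39, 34528094 to 34627409), and all 5 had a log2 fold change above 0, with a median of 0.21 that was 0.14 without Mettl3 KO replicate 1. They stayed above 0 under each of the 20 alternatives, between 0.02 and 0.70. With all 8 libraries none was called, and of the 5 Ifit1bl1 was called in 3 of the 20 alternatives. As in most of the whole list, Mettl3 KO replicate 1 was the highest library, here in 4 of the 5. WT replicate 3 was the lowest in 4 of the 5. Mettl3 KO replicate 2, lowest as often as WT replicate 3 in the whole list, was the lowest in 0 of the 5. The genes share neighbouring loci and may not be independent of each other, which was not tested.

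Ifit2, the most abundant of them, had 210, 245, 237 and 242 normalized read counts in WT and 306, 244, 277 and 249 in Mettl3 KO. Only WT replicate 2 reached into the Mettl3 KO range. The log2 fold change was 0.20 (95% interval 0.04 to 0.36, limma, adjusted p = 0.120). Ifit1 had 121, 133, 115 and 130 in WT against 164, 130, 142 and 117 in Mettl3 KO (log2 fold change 0.14, adjusted p = 0.476, and 0.05 without replicate 1 or 0.21 without replicate 4 of Mettl3 KO). Ifit3 had 35, 48, 29 and 55 in WT against 76, 60, 54 and 34 in Mettl3 KO (log2 fold change 0.40, adjusted p = 0.289). Leaving out Mettl3 KO replicate 1, WT replicate 3 or Mettl3 KO replicate 4 gave 0.24, 0.25 and 0.62 for Ifit3. In Ifit1 and Ifit3 the genotypes overlapped, with Mettl3 KO replicate 4 at or near the level of the lower WT libraries.

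Ifit3b had 30, 32, 26 and 29 normalized read counts in WT and 51, 31, 30 and 28 in Mettl3 KO, so that its log2 fold change of 0.21 (adjusted p = 0.601) came from replicate 1 and was 0.02 without it. Ifit3 and Ifit3b are near-identical copies: 42.3% of the 72-base windows of Ifit3 and 36.7% of those of Ifit3b also occur in transcripts of other genes, mostly in each other, and their promoter windows printed above are the same. Reads that fit more than 1 place were removed by the authors, which lowers both values.

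Ifit1bl1, an Ifit1-like gene at 34570291 to 34579356 on the minus strand of chromosome 19 (mm39), had 30, 28, 27 and 44 normalized read counts in WT and 37, 54, 46 and 52 in Mettl3 KO. It was the exception in the family, since here Mettl3 KO replicate 1 was the lowest Mettl3 KO library and WT replicate 4 stood apart from the other WT libraries. The means were 32.3 ± 7.93 in WT against 47.3 ± 7.63 in Mettl3 KO (SD, n = 4), and the log2 fold change was 0.55 (SE 0.18, 95% interval 0.19 to 0.91, limma, adjusted p = 0.0570). It was 0.66 when Mettl3 KO replicate 1 was left out (adjusted p = 0.0232), and 0.70 when WT replicate 4 was (adjusted p = 0.0186). With robust variance estimates the adjusted p was 0.0460, and over all alternatives the adjusted p ranged from 0.0186 to 0.188.

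ISG15 is a ubiquitin-like protein that is attached to other proteins after interferon exposure, and USP18 removes it and dampens the receptor. Isg15 had 7, 9, 2 and 9 normalized read counts in WT and 13, 6, 8 and 7 in Mettl3 KO, a level at which a log2 fold change of 0.39 had an interval of -0.42 to 1.2. It was -0.02 without WT replicate 3 and 0.19 without Mettl3 KO replicate 1. Usp18 had 55, 62, 42 and 40 in WT against 72, 37, 48 and 49 in Mettl3 KO (log2 fold change 0.03, 95% interval -0.34 to 0.40). Both were highest in Mettl3 KO replicate 1, and their remaining Mettl3 KO libraries lay among the WT libraries or below them.

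**Figure D4:**
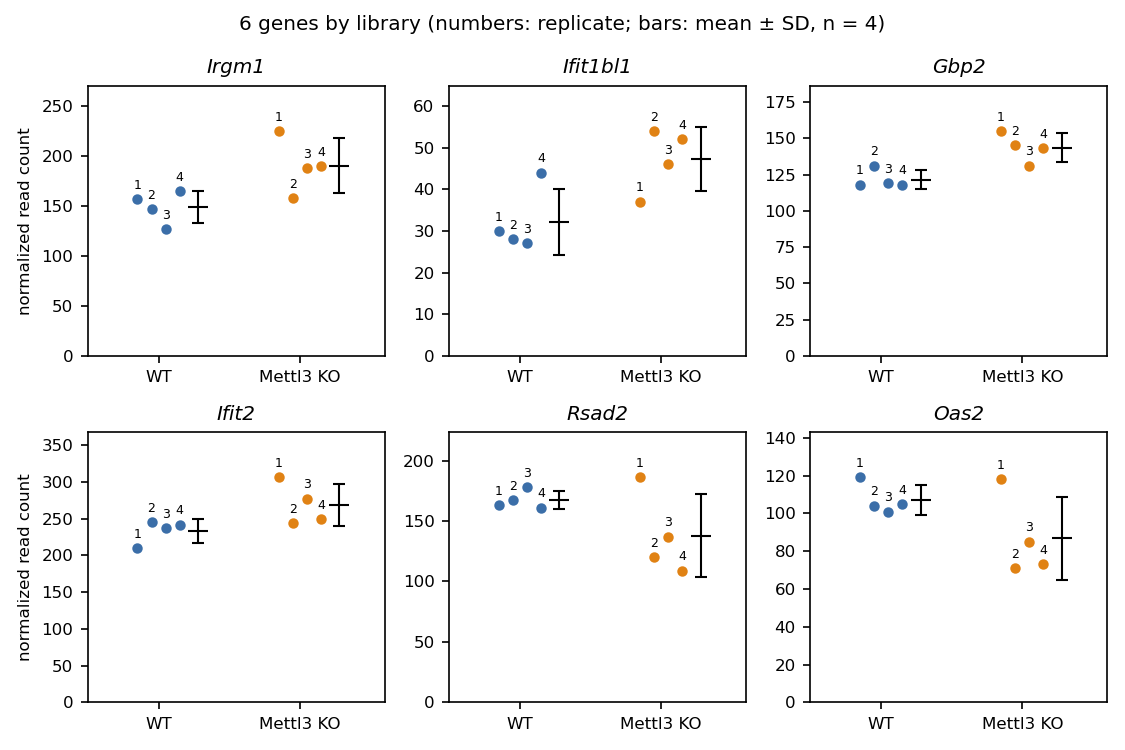
Normalized read counts of Irgm1, Ifit1bl1, Gbp2, Ifit2, Rsad2 and Oas2 in each library (points, numbered by replicate) with the mean ± SD of each genotype (bars, n = 4). In Rsad2 and Oas2 the Mettl3 KO replicates 2 to 4 lie below every WT library and replicate 1 does not, while Irgm1 and Gbp2 have Mettl3 KO values at or above most WT values.

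Of the other effectors, 5 had a log2 fold change above 0 and 5 below 0, and none was called. Without Mettl3 KO replicate 1 the log2 fold change was above 0 in 1 and below 0 in 9, with a median of -0.09. Rsad2, or viperin, makes a nucleotide that terminates RNA chains, and lies at 26492745 to 26506451 on the minus strand of chromosome 12 (mm39). It had 163, 167, 178 and 161 normalized read counts in WT and 186, 120, 137 and 109 in Mettl3 KO. The WT libraries were close to each other, Mettl3 KO replicate 1 was above them all, and the other Mettl3 KO libraries were below them all. The log2 fold change was -0.30 (SE 0.12, 95% interval -0.54 to -0.07, limma, adjusted p = 0.118) with all libraries. Without Mettl3 KO replicate 1 the level fell from 167 ± 7.59 (SD, n = 4) to 122 ± 14.1 (SD, n = 3), or -0.46 on the log2 scale (limma, adjusted p = 0.00208). Over the alternatives its adjusted p ranged from 0.00208 to 0.386, and it passed the threshold only in this one.

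Rnf213, a very large ubiquitin ligase, and Parp14, an ADP-ribosyltransferase, gave the highest read counts of the set. Rnf213 had 1137, 1192, 1128 and 1164 normalized read counts in WT and 1324, 1066, 1121 and 1086 in Mettl3 KO, and Parp14 had 610, 608, 576 and 635 in WT against 664, 546, 580 and 551 in Mettl3 KO. Here too replicate 1 exceeded every WT library while the other Mettl3 KO libraries lay low, so that the means were almost equal. The log2 fold changes were -0.01 (95% interval -0.12 to 0.10) and -0.06 (-0.18 to 0.06), and -0.08 and -0.12 without replicate 1, where neither was called (limma, adjusted p = 0.253 and 0.175).

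The remaining effectors overlapped between the genotypes. Mx1, a dynamin-like antiviral GTPase, had 15, 15, 7 and 20 normalized read counts in WT and 17, 16, 13 and 14 in Mettl3 KO, and its relative Mx2 had 42, 57, 36 and 46 in WT against 53, 38, 43 and 33 in Mettl3 KO. Bst2, or tetherin, which holds budding viruses at the cell surface, had 39, 35, 25 and 28 in WT against 27, 27, 22 and 24 in Mettl3 KO, the lowest log2 fold change of the effectors at -0.32 (95% interval -0.70 to 0.07, adjusted p = 0.366). It was a gene in which Mettl3 KO replicate 1 was not high. Xaf1, Ifi27, Ifi35 and Ifi44 had log2 fold changes of 0.01 to 0.03 and adjusted p of 0.929 or more, and replicate 1 was the highest library in Ifi27, Ifi35 and Ifi44.

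The interferon-inducible GTPases attack the membranes around intracellular microbes, and IRGM1 restrains the other IRG proteins on the cell's own membranes. Irgm1 (ENSMUSG00000046879, mm39 chromosome 11, 48752795 to 48762510, minus strand) had 157, 147, 127 and 165 normalized read counts in WT and 225, 158, 188 and 190 in Mettl3 KO. Only Mettl3 KO replicate 2 lay within the WT range, and replicate 1 was the highest. The level rose from 149 ± 16.4 to 190 ± 27.4 (SD, n = 4). On the log2 scale this was 0.35 (SE 0.10, 95% interval 0.14 to 0.55, limma, adjusted p = 0.0312).

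The call of Irgm1 was near the threshold and depended on single libraries. It was kept in 14 of the 20 alternatives, with adjusted p between 0.0140 and 0.227, and the log2 fold change stayed between 0.26 and 0.43. It was lost without Mettl3 KO replicate 1 (0.26, adjusted p = 0.10), without WT replicate 3 (0.27, adjusted p = 0.105), without WT replicate 2 (0.34, adjusted p = 0.0804), without Mettl3 KO replicate 3 (0.35, adjusted p = 0.0902), without Mettl3 KO replicate 4 (0.34, adjusted p = 0.0877) and in limma with no mean-variance trend (adjusted p = 0.227).

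The 250 bases before the start of Irgm1 are shown because it was the gene called. They lie at chr11:48871421-48871670 (RefSeq, GRCm38.p6, minus strand, printed along the gene), and the capitals mark a pair of overlapping matches to the ISRE letters, which begin 30 and 24 bases before the start.
Irgm1: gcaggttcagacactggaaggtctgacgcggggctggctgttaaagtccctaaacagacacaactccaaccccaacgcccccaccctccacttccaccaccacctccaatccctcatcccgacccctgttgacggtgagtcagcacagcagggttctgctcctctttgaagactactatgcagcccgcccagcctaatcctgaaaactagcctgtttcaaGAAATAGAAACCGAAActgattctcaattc

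Gbp2, a guanylate-binding protein, had 118, 131, 119 and 118 normalized read counts in WT and 155, 145, 131 and 143 in Mettl3 KO. The genotypes met only at 131, which WT replicate 2 and Mettl3 KO replicate 3 shared. Its log2 fold change was 0.24 (SE 0.08, 95% interval 0.06 to 0.41) with an adjusted p of 0.0890 in limma, and it was called in none of the 20 alternatives (adjusted p 0.0665 to 0.195). Its neighbours on chromosome 3 did not follow it. Gbp7 had 320, 287, 254 and 302 in WT against 324, 243, 290 and 255 in Mettl3 KO (log2 fold change -0.07, 95% interval -0.24 to 0.10), and Gbp3 had 211, 196, 158 and 220 in WT against 193, 156, 198 and 171 in Mettl3 KO (-0.12, 95% interval -0.32 to 0.08). Leaving out 1 library moved the value of Gbp3 to between -0.22 (without WT replicate 3) and -0.06 (without Mettl3 KO replicate 2 or WT replicate 4). The differences between these neighbours were not tested.

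Iigp1, the IRG protein with the highest level per length, had 565, 517, 446 and 697 normalized read counts in WT and 729, 504, 582 and 468 in Mettl3 KO. It varied widely within both genotypes, with a log2 fold change of 0.04 (95% interval -0.20 to 0.27). Igtp, the IRG protein also known as IRGM3, had 111, 115, 91 and 164 in WT against 232, 140, 123 and 123 in Mettl3 KO. Its replicate 1 stood far above all other libraries, and the log2 fold change of 0.34 (adjusted p = 0.25) was 0.13 without it (adjusted p = 0.672) and 0.22 without WT replicate 3. Of its 72-base windows 8.25% also occur in transcripts of other genes, mostly Irgm2.

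Further genes of the pathway were taken as fixed lists, of which 91 genes were tested and 6 called (6.59%, against 7.91% of all tested genes). The share is near that of all genes, and the genes called are described as single genes. Among 7 ligand and receptor genes none was called and the median log2 fold change was -0.03. Ifnb1, Ifng, Ifnk and Ifne were also on this list but were not among the tested genes. Among 24 signalling genes 2 were called higher and 1 lower, with a median of -0.02.

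Traf3, an adaptor between the RNA sensors and the kinases of the IRFs, had 202, 202, 195 and 163 normalized read counts in WT and 245, 229, 235 and 220 in Mettl3 KO and rose by 0.29 on the log2 scale (limma, adjusted p = 0.0200). Ticam1, or TRIF, the adaptor of TLR3, had 85, 69, 66 and 56 in WT against 94, 87, 108 and 88 in Mettl3 KO and rose by 0.45 (limma, adjusted p = 0.0228). In both genes every Mettl3 KO library was above every WT library. The call of Traf3 was lost without WT replicate 4, Mettl3 KO replicate 2 or Mettl3 KO replicate 3 (adjusted p = 0.0803, 0.0527 and 0.0687), and that of Ticam1 without WT replicate 2, 3 or 4 or Mettl3 KO replicate 3 (adjusted p = 0.0549, 0.0505, 0.0924 and 0.110). In limma with no mean-variance trend neither was called (adjusted p = 0.159 and 0.151).

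Jak1, the kinase bound to the receptors of type I interferon and interferon-γ, had 840, 814, 886 and 874 normalized read counts in WT and 744, 685, 704 and 663 in Mettl3 KO and fell by 0.29 on the log2 scale (limma, adjusted p = 0.000350). Every Mettl3 KO library, replicate 1 included, was below every WT library. The call was lost only in limma with no mean-variance trend (adjusted p = 0.0830), as were those of Helz2, Psmb10 and Calr below.

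Of 40 further interferon-stimulated genes, 1 was called lower and none higher, with 15 log2 fold changes above 0, 25 below 0 and a median of -0.07. The gene called was Helz2, a helicase, with 326, 331, 373 and 361 normalized read counts in WT and 284, 281, 283 and 287 in Mettl3 KO (log2 fold change -0.29, limma, adjusted p = 0.00311). Its Mettl3 KO libraries were nearly equal and all below the WT range. Without Mettl3 KO replicate 1 Ifi203, Gbp4 and Gbp9 were called lower as well, and the median was -0.12. The highest library was Mettl3 KO replicate 1 in 14 of the 40 genes (35%), against 28 of the 40 genes of the set described here.

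Both interferon types induce many, though not all, of the 20 genes listed for MHC class I and its peptide supply. The 20 genes had a median log2 fold change of -0.06. Without Mettl3 KO replicate 1 the median was -0.16, and 17 of 20 were below 0. Without that library Nlrc5, an activator of MHC class I genes, was called lower as well (log2 fold change -0.61, limma, adjusted p = 0.0454), against -0.37 (adjusted p = 0.333) with all 8. Psmb10, a catalytic subunit of the immunoproteasome, had 87, 81, 64 and 83 normalized read counts in WT and 93, 124, 116 and 126 in Mettl3 KO and was called higher (log2 fold change 0.54, limma, adjusted p = 0.00461). Calr, a chaperone of the endoplasmic reticulum, had 717, 675, 730 and 720 in WT against 616, 604, 624 and 606 in Mettl3 KO and was called lower (log2 fold change -0.21, limma, adjusted p = 0.00378). In both genes the genotypes did not overlap. Replicate 1 was the lowest Mettl3 KO library in Psmb10 and the highest library in 8 of the 20 genes.

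**Figure D5:**
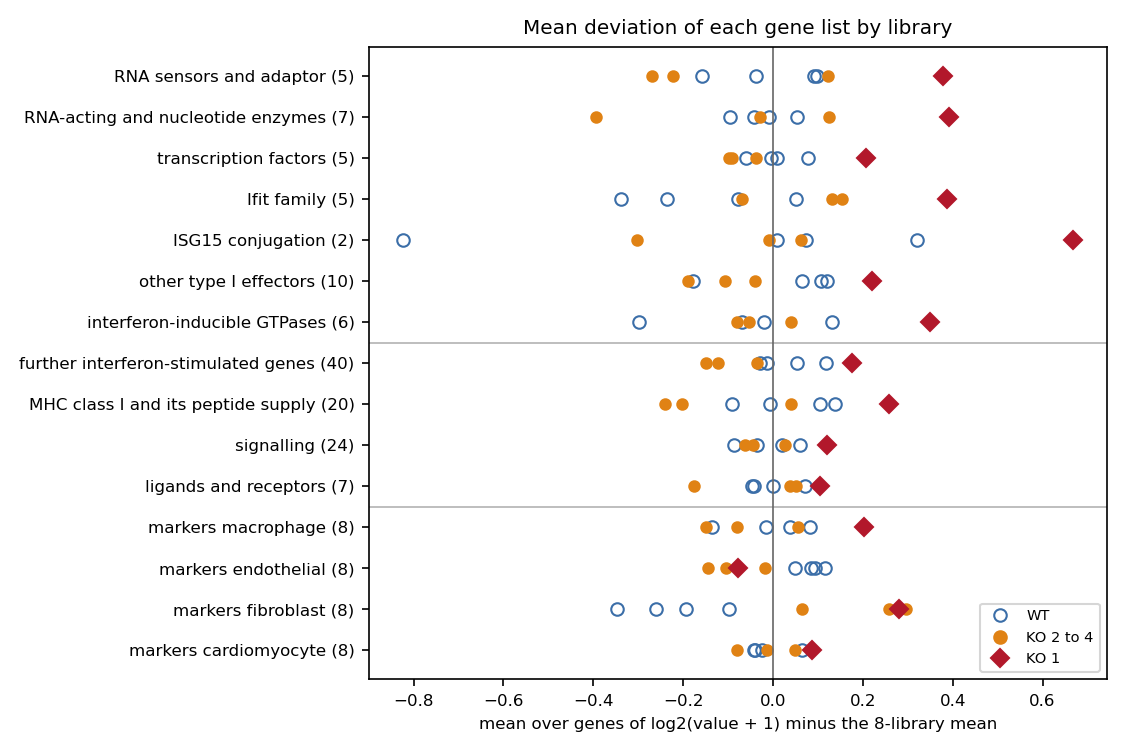
Mean deviation of each gene list from its 8-library mean (log2(value + 1) scale; number of genes in brackets) in each WT library (open circles), Mettl3 KO replicates 2 to 4 (filled circles) and Mettl3 KO replicate 1 (diamonds), for the 7 role groups, the further pathway lists and marker genes of cell types. The diamond is the rightmost point in each of the 7 role groups, in each of the 4 further pathway lists and in the macrophage and cardiomyocyte lists, and in the endothelial and fibroblast lists it lies among the other Mettl3 KO libraries.

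In whole hearts fewer cells of a type and less RNA per cell cannot be told apart, and many of these genes are expressed in non-muscle cells, so marker lists of cell types are given beside the result. Endothelial markers were called lower in Mettl3 KO hearts in 4 of 8 genes (Cdh5, Kdr, Tie1 and Fabp4) and had a log2 fold change below 0 in all 8, with sums of 4794 to 5038 normalized read counts in WT and 4169 to 4575 in Mettl3 KO, of which replicate 1 had 4403. Fibroblast markers were called higher in 7 of 8 genes and had a log2 fold change above 0 in all 8, with sums of 3648 to 4172 in WT against 4711 to 5671 in Mettl3 KO. In both lists replicate 1 lay among the other Mettl3 KO libraries.

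Macrophage markers were called in 0 of 8 genes, with sums of 1124 to 1332 normalized read counts in WT and 1156 to 1388 in Mettl3 KO, where the highest value was that of replicate 1. Markers of T, NK and B cells summed to 24 to 32 in WT against 18 to 28 in Mettl3 KO over 6 genes, and those of neutrophils to 8 to 24 and 11 to 24 over 3 genes, so that these markers were close to the detection limit, and 2 of the 8 lymphocyte and 2 of the 5 neutrophil markers listed were not among the tested genes. Markers of plasmacytoid dendritic cells, which are strong producers of interferon, summed to 1793 to 2031 in WT against 1749 to 1837 in Mettl3 KO over 4 genes. Nearly all of this sum was Tcf4 (1721 to 2001), which other cells also express, and Bst2 is itself among the 40 genes, while the more specific markers Siglech (1 to 8) and Ccr9 (0 to 3) were at or near the detection limit. Cardiomyocyte markers were called lower in 1 of 8 genes (Ryr2), while the other 7 had log2 fold changes above 0 and were not called. Their sums were 22651 to 23953 in WT and 21115 to 23784 in Mettl3 KO, of which Ryr2 held 9666 to 10427 and 7975 to 9017, and replicate 1 was the highest library in 6 of the 8. The part of cell composition in the values of the interferon genes was not tested.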

How the data were processed

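The 8 libraries were stranded and made from total heart RNA, with single-end reads of 72 bases. Per the submitters' processing notes and the methods, the authors trimmed reads (Trimmomatic 0.39), aligned them to mm39 (STAR 2.7.11a), removed duplicates (Picard 3.1.1) and reads mapping to several places, to ribosomal RNA or to mitochondria, counted reads on exons by strand (featureCounts 2.0.4) and normalized them with DESeq2 1.36.0. The deposited values are a score, normalized read counts rounded to whole numbers, and not raw counts.

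The 40 members, their roles, the further lists and the tests were chosen with earlier results of these data known. limma 3.58.1 (R 4.3.3) was run on log2(value + 1) of the 20313 genes whose mean reached at least 1 (2732 did not), with genotype alone in the model and the variance trended on the mean, two-sided, with Benjamini-Hochberg adjustment over all of them. Named with all values were members that were called or did not overlap and the 3 most abundant of each role; the other members (such as Ifit1bl1, Oas2, Gbp2 and Igtp) and Bmp10 and Myl7 were named after their values were seen. Reads were recovered from the spacing of low values; on 8 simulated libraries the factors were found with an error of at most 3.3e-05. Gene lengths and shared 72-base windows came from GENCODE M21 and promoters from RefSeq (both GRCm38), matched by identifier and symbol, and no coordinates were carried between builds. The fit was tested on simulated data, drawn independently for each gene and library and with the same dispersion for all genes. Of 200 genes given a log2 change of 0.5, 35.0% were called, and 80.7% of the 83 with a mean of at least 50. With changes of 1, 63.5% and 100% were called. No shift shared by the genes of a library was simulated, so these shares may be too high for the 40 genes. Alternatives were other pseudocounts, filters, scalings and variance models, voom on recovered reads, the replicate number as a block, and each library left out in turn.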

Additional observations from a re-analysis of the deposited data

Results flagged for a closer look

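In 5 of 80 groups of 4 libraries (40 genes in both genotypes), 1 library stood so far from the others that its gap to the nearest, as a share of the group's range, exceeded Dixon's 95% critical value, where chance alone gives about 4. In 3 of the 5 that library was Mettl3 KO replicate 1. Irf7 had 82 normalized read counts in it and 62 to 63 in the other Mettl3 KO libraries (0.95 of the range), Ifit3b had 51 against 28 to 31 (0.870), and Igtp had 232 against 123 to 140 (0.844). The other groups were WT, with Ifi27 at 67 in WT replicate 3 against 86 to 88 (0.905) and Gbp2 at 131 in WT replicate 2 against 118 to 119 (0.923).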

How the results depend on the processing

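Over 20 alternatives, the number of the 40 genes called higher was 0 in limma without a trend, 2 with robust variance estimates and 0 to 2 with a library left out, and the number called lower was 0 to 2 with a library left out (2 without Mettl3 KO replicate 1). Of the further pathway genes 0 were called without a trend, where 321 instead of 1607 of all genes were called, and 4 to 10 with a library left out (10 without Mettl3 KO replicate 1), while 1019 to 1596 of all genes were called (1596 without Mettl3 KO replicate 1). The median log2 fold change of the 40 genes ranged from -0.06 to 0.08 with a library left out. With a library left out, 18 of the 40 genes changed sign in at least 1 fit, among them Isg15, Mx1, Mx2 and Zbp1, with log2 fold changes beyond ±0.1, and otherwise genes closer to 0. Tlr3 was at -0.00389 with equal library totals, -0.0128 with equal upper quartiles, -0.00787 with quantile normalization, -0.00393 with voom and -0.0141 with voom on recovered reads, and Adar at -0.00605, -0.0150, -0.00775, -0.00684 and -0.00312 in that order. With a library left out Tlr3 ranged from -0.0629 to 0.0616, Adar from -0.0223 to 0.0511, Ifih1 from -0.0787 to 0.0377, Eif2ak2 from -0.0214 to 0.0820, Isg15 from -0.0185 to 0.561, Usp18 from -0.140 to 0.174, Rnf213 from -0.0825 to 0.0217 and Iigp1 from -0.0895 to 0.150. The causes were not tested. A tally over the alternatives was made for 31 single genes, which include some outside the 40 and leave out some of the 40. For these, 567 values kept their direction and side of the threshold, 28 changed sign, 19 lost and 5 gained a call. With a mean of at least 10 required, Oas1a, Oas3 and Isg15 were not tested. With the replicate number as a block (replicate block), 1 gene was called higher, as without it, and 1346 of all genes were called; same-numbered libraries correlated at -0.02 to 0.07, not every library correlated best with its own number, and the samples thus share only a number. Depth limits 5 of the 40 genes with a mean under 20, and changes of 0.5 or less on the log2 scale may have gone undetected. In genes with a mean under 50, larger changes may have gone undetected as well.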

Other observations

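Outside the 40 genes, some interferon-stimulated genes were also high in Mettl3 KO replicate 1, and these were chosen after their values were seen. Irgm2, an IRG protein, had 147, 132, 122 and 220 normalized read counts in WT and 354, 132, 200 and 203 in Mettl3 KO, 2.14 times the mean of the other 7 libraries in replicate 1. Gbp6, a guanylate-binding protein, had 33, 40, 40 and 56 in WT against 80, 44, 40 and 36 in Mettl3 KO (1.94 times). Lgals3bp, a secreted glycoprotein, had 168, 156, 150 and 132 in WT against 235, 140, 157 and 125 in Mettl3 KO (1.6 times). None of these genes was called (limma, adjusted p = 0.166, 0.679 and 0.815). Not all such genes did this: Ddx60, a helicase, had 190, 213, 159 and 197 in WT and in Mettl3 KO 162, 154, 160 and 156, with replicate 1 level with the others.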
